A study of Mus musculus with 8 samples.

Results

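T cells of the mouse lung were taken as the cells that the study's own annotation names T, and there were 1770 of them among the 41106 annotated cells (40074 without the clusters marked as multiplets or cell cycle). They came from 8 mice, and single-cell RNA sequencing (10x 3′ chemistry) had been run on the digested right lungs. All mice were Sftpc-CreERT2-mTmG animals on C57BL/6, in which tamoxifen, given at 8 to 10 weeks of age, switches surfactant protein C-expressing alveolar type 2 cells from tdTomato to GFP, so T cells are not the cells that the Cre driver targets. At 2 weeks after tamoxifen, littermates were assigned at random, and 4 breathed smoke from 3R4F research cigarettes for 6 h per day on 5 days per week over 10 months (CS: C2, C5, D2 and D5) while 4 breathed room air (RA: F1, F3, M1 and M3). Lungs were collected 1 day after the last exposure, and each CS library shared a sequencing lane with an RA library. CD45+ leukocytes, the fraction that holds T cells, had been sorted on magnetic columns and mixed back at 10% to 90% CD45- cells before capture, so the share of leukocytes in a library does not reflect the lung alone. CD45+ types made up 12.7 to 37.3% of the annotated cells, above the intended 10% in all 8 libraries.

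T cells recognise peptide bound to MHC molecules through a receptor made of variable alpha and beta chains (or gamma and delta chains) that are carried to the surface by the CD3 subunits. CD4+ cells help other immune cells, CD8+ cells kill infected or altered cells, regulatory T cells marked by the transcription factor Foxp3 restrain both, and gamma-delta T cells act early at barrier surfaces. In the lung, naive and recirculating T cells pass through the vessels while effector, memory and tissue-resident cells stay in the wall of airways and alveoli, and long exposure to cigarette smoke is known for the accumulation of CD8+ T cells and lymphoid follicles. The comparison asked here is how the T cells of CS mice differed from those of RA mice.

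The 8 mice gave between 74 (RA F1) and 341 (CS C5) T cells, 1049 in CS and 721 in RA, with a median of 4063 to 6127 transcripts per T cell and library totals from 31882952 to 55485617 transcripts over all cells. No barcode was shared between T cells of different libraries. Over cells of all types, 394 cells had a barcode that also occurred in another library. In T cells the sex-linked transcripts Xist and Ddx3y went against the labelled sex in all 4 CS libraries (Xist 7.07 and 8.70 per 10000 transcripts in C2 and C5, labelled male, and Ddx3y 1.42 and 1.48 in D2 and D5, labelled female) and matched it in the 4 RA libraries. Each exposure held 2 male and 2 female mice either way, and no result below was split by sex. RA F1 stood apart in having the fewest T cells, the lowest share of leukocytes (12.7% of its cells against 17.8 to 37.3% in the others) and the highest level of type 2 innate lymphoid and neutrophil markers in T cells, and several values below are given with and without it. Haemoglobin transcripts, the defining markers of red cells, were present in T cells of all mice: the 5 erythrocyte markers summed to 3.15 to 28.6 per 10000 in CS and 0.405 to 16.4 in RA, with all 5 means higher in CS (p = 0.171, exact two-sided permutation test). The summed markers of B cells were 0.8984 to 1.002 in CS and 0.4537 to 1.059 in RA, and those of macrophages and monocytes 1.17 to 2.87 and 1.30 to 2.94. Endothelial markers summed to 4.46 to 6.52 in CS and 3.58 to 6.45 in RA. Of the 11 marker lists of other cell types, none differed between exposures at p under 0.05, and leaving out the 664 T cells that held at least 2 markers of B cells, of macrophages and monocytes, of endothelial or of alveolar epithelial cells left 1077 genes at an unadjusted p under 0.05 in the comparison below, against 1313 with them. Among single markers, Hbb-bs, a beta-globin, was at 9.69 ± 6.91 per 10000 in CS and 2.35 ± 4.30 in RA, with overlap (SD, n = 4 each, limma adjusted p = 0.155). Pecam1, an endothelial adhesion protein that T cells also express, was at 3.55 ± 0.91 and 2.25 ± 0.38 without overlap (limma adjusted p = 0.146). Both were named after their values were seen.

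The T cell markers given here were highest in the cells named T. This does not test the label, since the study annotated its clusters by known cell markers. Cd3e, the signalling subunit epsilon of CD3, was at a mean of 3.56 per 10000 transcripts in cells named T and at most 0.0744 in any of the other 31 annotated types. Trac, the constant region of the receptor alpha chain, was at 3.07 against at most 0.104, and Il7r, the receptor for the survival cytokine interleukin-7, at 6.76 against at most 2.67 in plasmacytoid dendritic cells. All 3 were highest in T of the 32 types, as were Cd3d, Cd3g, Cd247, Cd4, Cd8a and Cd8b1. A Cd3 or Trac transcript was found in 78.6 to 93.4% of the T cells of a mouse. The cells named NK and cytotoxic T were annotated separately and are not counted here.

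The CD3 genes, whose products carry the receptor to the cell surface, are shown first because the smallest p-value among the receptor genes lay there. Cd3g, Cd3d and Cd3e stand together on chromosome 9 (GRCm38), and the starts of Cd3g and Cd3d, which are read away from each other, are 1355 bases apart. The 250 bases before each start are given 5′ to 3′ on the strand of the gene, from the RefSeq annotation of GRCm38.p6. Capitals mark each GGAA (TTCC on the other strand), the core that ETS-family factors bind.
Cd3g (chr9:44980432-44980681, minus strand): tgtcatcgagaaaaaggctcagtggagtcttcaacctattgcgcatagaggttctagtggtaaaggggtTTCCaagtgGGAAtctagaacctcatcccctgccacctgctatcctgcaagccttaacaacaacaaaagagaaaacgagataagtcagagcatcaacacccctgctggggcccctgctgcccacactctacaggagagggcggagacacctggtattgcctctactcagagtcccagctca
Cd3d (chr9:44981536-44981785, plus strand): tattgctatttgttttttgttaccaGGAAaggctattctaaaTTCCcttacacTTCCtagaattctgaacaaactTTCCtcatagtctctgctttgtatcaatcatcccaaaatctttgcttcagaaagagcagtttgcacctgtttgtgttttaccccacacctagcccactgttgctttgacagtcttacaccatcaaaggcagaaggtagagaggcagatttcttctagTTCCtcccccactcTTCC
Cd3e (chr9:45009612-45009861, minus strand): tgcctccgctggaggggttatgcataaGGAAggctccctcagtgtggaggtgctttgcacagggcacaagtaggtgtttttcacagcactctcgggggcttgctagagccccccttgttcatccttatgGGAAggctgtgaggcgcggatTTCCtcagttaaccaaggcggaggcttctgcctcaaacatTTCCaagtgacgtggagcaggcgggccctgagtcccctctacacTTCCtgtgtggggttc
GGAA was found 2 times before Cd3g, 6 times before Cd3d and 5 times before Cd3e, and 1 match of Cd3g and 1 of Cd3e overlapped a CANNTG match. At least 1 GGAA lies in the same window of 93.4% of 32851 RefSeq promoters, where the median is 3 matches, so the motif is not particular to these genes.

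Cd3g, the gamma subunit of CD3, was at 4.64, 3.91, 5.15 and 3.59 per 10000 transcripts in CS mice C2, C5, D2 and D5 and at 7.28, 6.36, 6.16 and 6.57 in RA mice F1, F3, M1 and M3. Every CS mouse lay below every RA mouse. The log2 difference of the per-mouse means (plus 1) was -0.52 (SE 0.11, adjusted p = 0.141, limma), the 18th smallest p of the 6330 genes tested. Cd3e was at 3.45, 2.95, 3.35 and 2.34 in CS and at 3.44, 4.21, 4.54 and 4.61 in RA, which overlapped through RA F1 (log2 difference -0.37, SE 0.12, adjusted p = 0.147, lower in 3 of 4 lanes). Cd3d was at 4.52 ± 0.44 in CS and 5.56 ± 0.69 in RA (SD, n = 4 each; log2 difference -0.24, adjusted p = 0.234). Trac was at 2.36 to 2.67 in CS and at 3.89, 4.20 and 3.97 in RA F3, M1 and M3, while RA F1, with the fewest T cells, was at 2.35. Its log2 difference was -0.35 (adjusted p = 0.18), and -0.50 without RA F1. The beta-chain constant regions Trbc1 and Trbc2 (chosen after their values were seen), which are nearly identical copies whose reads cannot be split with certainty, were lower in CS by 0.32 and 0.36 on the log2 scale.

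Cd247, the zeta chain that carries most of the signalling motifs of the complex, was named after its value was seen and was higher where the other CD3 subunits were lower. Its levels were 6.55, 7.69, 8.48 and 7.30 per 10000 in CS and 4.43, 6.13, 5.62 and 6.09 in RA, and the groups did not overlap (log2 difference 0.38, SE 0.12, adjusted p = 0.146). Cd3g, Cd3d, Cd3e and Trac span only 3.69 to 10.9 kb. Short genes were more often lower in CS, as given below. With every gene centred on its class of span (described below), these genes stayed lower in CS, and none passed an adjusted p of 0.05 (limma). The cause of their differences was not tested. Il7r was at 5.01 to 8.64 in CS and 6.18 to 8.80 in RA, and the difference was within the spread between mice (-0.15, limma adjusted p = 0.589). It ranged from -0.27 to -0.04 with each mouse left out. Of the co-receptors, Cd4 was at 1.11 ± 0.13 in CS and 1.03 ± 0.26 in RA, Cd8a at 0.760 ± 0.206 and 1.08 ± 0.39, and Cd8b1 at 1.996 ± 0.234 and 2.57 ± 0.67, with overlap in each. Without RA F1 the log2 differences of Cd8a and Cd8b1, -0.23 in both, were -0.35 and -0.38. With each mouse left out they ranged from -0.35 to -0.13 and from -0.38 to -0.17. Lat and Cd2, an adaptor and an adhesion receptor of the synapse chosen after their values were seen, were lower in CS by 0.33 and 0.30 on the log2 scale. Skap1 and Ptprc, an adaptor and the phosphatase CD45, which span 294.5 and 112.8 kb, had differences of 0.20 and 0.09. That of Skap1 ranged from 0.06 to 0.27 with each mouse left out. Over the 24 genes fixed for T cell identity and receptor signalling, all tested, 8 were lower and 1 higher in CS at an unadjusted p under 0.05, none at an adjusted p. The median log2 difference was -0.15, or -0.12 with every gene centred on its class of span (described below). It was -0.22 within group 1 and -0.04 within group 2 of the T cell groups below. The median member spans 22.7 kb, and of all genes of up to 20 kb 22.3% were lower at this threshold. The same threshold was passed downward by 10.6% and upward by 10.2% of all 6330 genes tested, whose median difference was -0.0008.

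**Figure D1:**
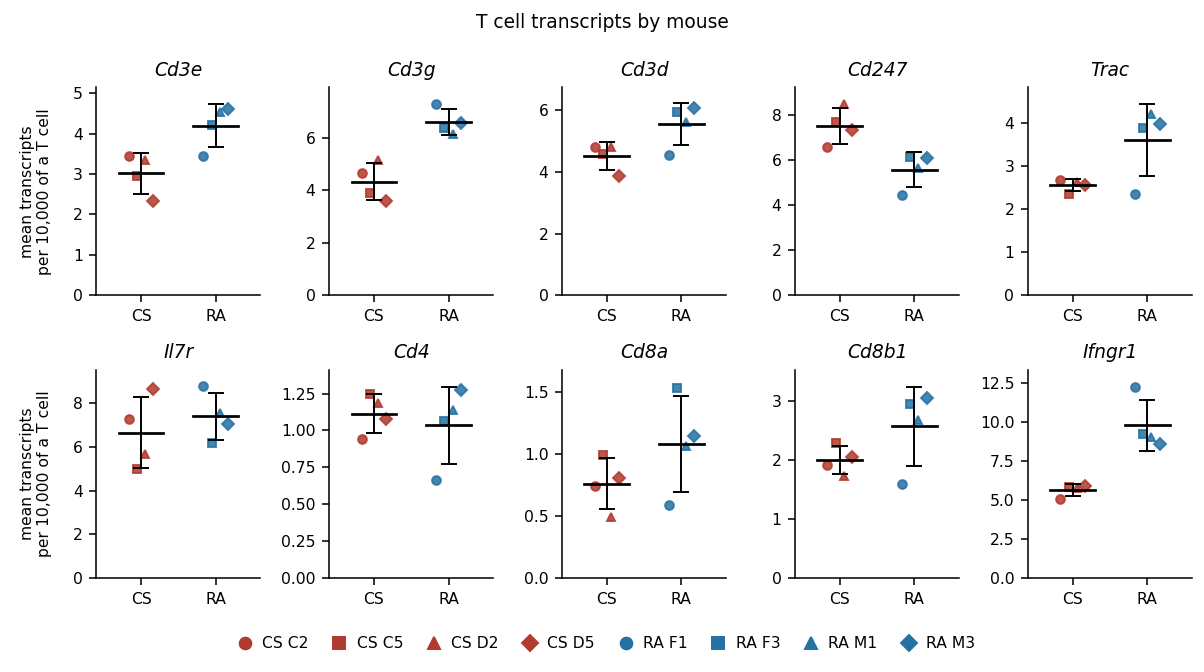
Mean transcripts per 10000 transcripts of a T cell (y axis, linear from 0) for 10 genes in CS and RA mice. Each point is 1 mouse, the horizontal bar the mean and the whisker the SD over 4 mice. CS and RA points do not overlap for Cd3g, Cd247 and Ifngr1, and RA F1 lies at or below the CS mice for Trac.

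Clustering of the 1770 T cells alone gave 6 groups that were only weakly apart (mean silhouette 0.248). Group 1 (709 cells, 40.1%) was led by Ccr7, Lef1, Igfbp4, Dapl1 and Actn1 and carried the naive markers, with Lef1 at 21.2 per 10000 against 3.41 in the other T cells, and was called naive-like. Group 2 (516 cells, 29.2%) was led by the killing genes Gzma, Gzmb, Gzmk and Nkg7, by the chemokines Ccl5 and Ccl4 and by NK receptors of the Klr family. Cd8b1 was at 3.90 against 1.69 in the other T cells, in 51.4% of its cells, and Cd4 at 0.611 against 1.32. Of the other fixed CD8 markers, Cd8a (1.96 against 0.535), Nkg7 (14.2 against 1.70, its 11th leading gene) and Ly6c2 (3.81 against 0.619) were higher too. Dapl1 was lower (0.0786 against 0.469). Of the fixed NK cell markers, Gzma and Klre1 were among its 10 leading genes, while Ncr1 and Klrb1c were found in 3.49 and 9.69% of its cells. As it carried fixed markers of both kinds, the group was left unnamed. Group 3 (256 cells, 14.5%) was led by Tnfrsf4, Ctla4, Ikzf2, Foxp3 and Izumo1r, with Cd4 in 66.0% and Foxp3 in 16.4% of its cells, and was called CD4-like with regulatory genes. Group 4 (210 cells, 11.9%) was led by Il23r, Il1r1, Blk, Cd163l1 and Zbtb16, and Trdc, the receptor delta chain, was at 4.86 against 0.283, so it was called gamma-delta-like. A Trdc transcript was found in 120 of all 1770 T cells, and Cd163l1, a fixed gamma-delta marker, in 27.6% of group 4. The name thus need not hold for each of its cells.

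The remaining groups were small. Group 5 (45 cells, 2.54%) was led by endothelial genes (Flt1, Ramp2, Cldn5 and Ptprm), had 2.01 times the median transcripts of T cells of the same mouse, and held at least 2 markers of another cell type in all of its cells; it too was left unnamed. Group 6 (34 cells, 1.92%) was led by Il5, Il1rl1, Pparg, Csf2 and Areg, and was called type 2 innate lymphoid-like. The group shares in a mouse are a description, since the genes that define the groups also differ between the mice. Group 1 held 26.7 to 52.6% of T cells in CS mice and 14.9 to 38.1% in RA mice (32.7 to 38.1% without RA F1, within the CS range), and group 2 held 17.5 to 33.0% and 32.0 to 37.2%. RA F1 had 11 cells in group 1 and 8.11% of its T cells in group 6. Leaving out groups 5 and 6 gave 1303 genes at an unadjusted p under 0.05 against 1313 with them.

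**Figure D2:**
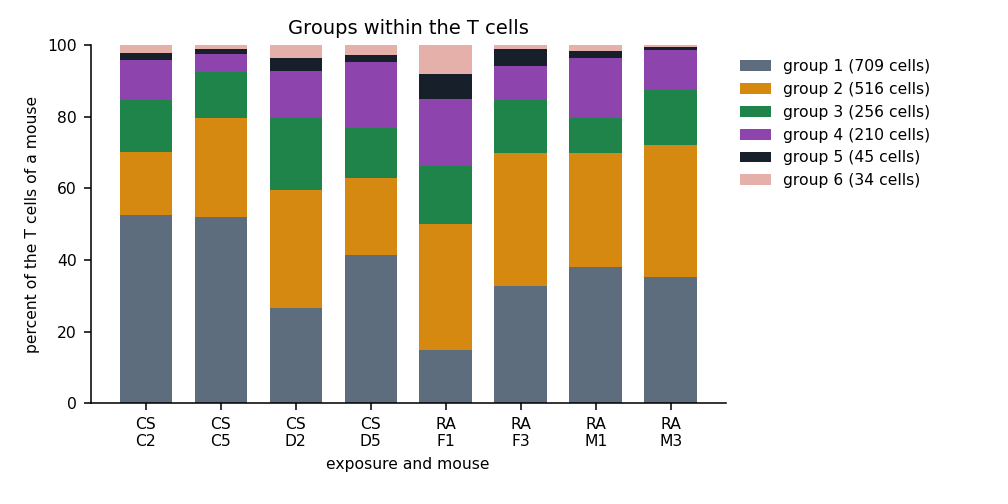
Share of the T cells of each mouse (y axis, percent) that fell in each of 6 groups found by clustering the T cells, for 4 CS and 4 RA mice on the x axis. Groups 1 and 2 make up most of each bar except in RA F1, where group 1 is 14.9%.

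T cells were not found in a different proportion in CS and RA lungs beyond the spread between mice. They were 8.08, 6.55, 3.35 and 4.14% of all cells in CS C2, C5, D2 and D5 and 1.16, 3.63, 4.21 and 8.89% in RA F1, F3, M1 and M3. The means were 5.53 ± 2.18% and 4.47 ± 3.23% (SD, n = 4 each; p = 0.686, adjusted p = 0.754 over the 11 values compared this way, exact two-sided permutation test), and the difference was -0.049 points without RA F1. Among CD45+ types alone, which the mixing step does not set, T cells were 21.1 ± 6.64% in CS and 18.1 ± 6.29% in RA (exact permutation p = 0.514). This difference of 2.99 points was 0.011 without RA F1 and 5.86 without CS D2. The log2 ratio of T cells to B cells was -0.26 ± 1.03 in CS and -0.29 ± 0.37 in RA (exact permutation p = 0.971), and CS D2, which had 707 B cells, was at -1.78. The difference of 0.03 was 0.54 without CS D2 (exact permutation p = 0.0857) and below 0 without any 1 of 5 other mice. Shares of captured cells do not give the number of T cells in the lung, which was not counted.

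CD4 to CD8 balance was compared by transcripts and by cells. A Cd4 transcript without Cd8a or Cd8b1 was seen in 388 T cells, a Cd8 transcript without Cd4 in 629, both in 35 and neither in 718, so most of the balance rests on cells in which 1 of the genes was caught. The log2 ratio of Cd4 to summed Cd8a and Cd8b1 transcripts was -1.50, -1.396, -0.90 and -1.401 in CS and -1.72, -2.08, -1.72 and -1.72 in RA. All CS mice had relatively more Cd4 than all RA mice. Cd4 spans 23.5 kb and Cd8a and Cd8b1 span 5.75 and 14.7 kb, and shorter genes were more often lower in CS, as given below. Within group 1 alone the log2 difference of Cd4 was -0.27, against 0.06 over all T cells. The part of gene span in the ratio was not tested. The means were -1.30 ± 0.27 and -1.81 ± 0.18 (p = 0.0286, the smallest an exact permutation test of 4 against 4 can give, adjusted p = 0.105 over 11). Within lanes the ratio was higher in CS by 0.22 to 1.18. It passed p = 0.05 no longer without RA F3 (0.42, exact permutation p = 0.0571) or with transcripts summed over cells (0.55, p = 0.114).

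Shares of cells with a transcript, after thinning each cell to 1000 transcripts, did not separate the exposures. Cd4 was found in 8.72 ± 1.35% of T cells in CS and 8.11 ± 1.98% in RA, and Cd8a or Cd8b1 in 18.2 ± 4.30% and 20.2 ± 4.46% (exact permutation p = 0.6 and 0.543, each adjusted p = 0.6 over the 4 shares). Without RA F1 the Cd4 difference of 0.61 points was -0.30, and that of Cd8, -2.01 points, was -4.24 (and -0.16 without CS D2). Without thinning, the same shares were 23.8 and 22.1% for Cd4 and 35.0 and 38.5% for Cd8. Foxp3 was found in 1.09 ± 0.81% and 0.560 ± 0.568% of thinned cells, and this order turned without thinning (3.06 and 3.68%). The thinned Foxp3 difference of 0.53 points was 0.79 without RA F1 and 0.24 without CS D2. Trdc was in 3.23 ± 0.84% and 5.13 ± 3.13%, with RA F1 at 9.46% and a mean difference of -0.457 points without it. In B cells, which lack these genes, the thinned shares were at most 0.214% at a median of 4055 transcripts per cell, against 4755 in T cells.

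No gene passed an adjusted p of 0.05 between CS and RA T cells. Of 6330 genes found in at least 10% of the T cells of either exposure, 0 were called by limma over the 8 mice (smallest adjusted p = 0.141), while 1313 (20.7%) had an unadjusted p under 0.05, 645 (10.2%) of them higher and 668 (10.6%) lower in CS. CS and RA mice did not overlap for 377 genes (5.96%) higher and 454 (7.17%) lower in CS. The study's own kind of test, which ranks the single cells of both exposures (Wilcoxon, Bonferroni-corrected), called 360 genes (5.69%), 106 higher (1.67%) and 254 lower (4.01%), but it counts the cells of a mouse as separate replicates. Without RA F1 the limma count at an unadjusted p was 1174, and within lanes as blocks 1166, with 0 called in both. The genes below are given as values, and none is a call.

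The smallest p-value among lower genes belonged to Ifngr1, the ligand-binding chain of the receptor for interferon-gamma (chr10:19591949-19610229). It was at 5.04, 5.83, 5.76 and 5.92 per 10000 transcripts in CS and at 12.2, 9.22, 9.08 and 8.63 in RA. Every CS mouse lay below every RA mouse (log2 difference -0.69, SE 0.12, adjusted p = 0.141). Ifngr1 was lower within group 1 (3.93 ± 0.58 in CS, n = 4, against 6.46 ± 0.39 in RA, n = 3) and within group 2 (7.16 ± 1.41 against 11.2 ± 3.03, n = 4 each). In NK and cytotoxic T cells it was at 10.6 ± 1.31 and 13.7 ± 0.66, and in B cells at 0.588 ± 0.046 and 0.682 ± 0.109. Ifngr2, the signalling chain of the same receptor, also named after its value was seen, differed by -0.04 (adjusted p = 0.849).

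Among the other 5 lower genes of smallest p were Cst7, an inhibitor of cathepsins in cytotoxic granules (0.356 ± 0.042 in CS, 0.658 ± 0.059 in RA), and Atp8a2, a phospholipid flippase (0.277 ± 0.096 and 0.910 ± 0.316). Syf2, a splicing factor, was at 1.16 ± 0.05 and 1.77 ± 0.10, Tomm22, a receptor of the mitochondrial import pore, at 0.909 ± 0.099 and 1.45 ± 0.08, and Ypel3 at 1.056 ± 0.150 and 1.654 ± 0.047. For all 6 the groups did not overlap (all genes, 7.17% in that direction), which is no added result, since the genes were picked by their p. Atp8a2 spans 559 kb and the other 4 span 2.54 to 8.53 kb. Log2 differences of the 5 ranged from -0.57 to -0.29, each with an adjusted p of 0.141.

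Taf4b, a subunit of the general transcription factor TFIID, had the smallest p-value among higher genes once 1 predicted gene was left out. Its level was 2.40, 2.41, 1.64 and 1.88 per 10000 in CS and 0.782, 1.04, 1.21 and 1.13 in RA, without overlap (log2 difference 0.59, SE 0.10, adjusted p = 0.141). Ankrd17, an ankyrin-repeat protein, was at 4.48 to 4.67 in CS and at 2.54 to 3.37 in RA. Usp3, a deubiquitinase of histones, was at 3.44 ± 0.47 and 2.07 ± 0.38, Herc1, a large HECT-domain ubiquitin ligase, at 2.63 ± 0.25 and 1.79 ± 0.09, Gramd4 at 1.12 ± 0.19 and 0.584 ± 0.153, and Zfp609 at 0.814 ± 0.042 and 0.477 ± 0.071. These 6 genes did not overlap between exposures either (all genes, 5.96% in that direction), which their choice by smallest p makes likely in advance. They span 78.5 to 158 kb of the genome. Taf4b was at 2.79 ± 0.45 in CS (n = 4) and 1.78 ± 0.08 in RA (n = 3) within group 1 and at 1.12 ± 0.25 and 0.841 ± 0.272 within group 2.

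The direction of the differences went with the length of the gene. Transcripts that still carry introns were counted with spliced ones by the authors, so the span of a gene from start to end bears on what was counted. Among 2416 tested genes of up to 20 kb, 23.2% had a difference above 0, with 54 higher (2.24%) and 539 lower (22.3%) in CS at an unadjusted p under 0.05 and a median of -0.08. Among 978 genes over 100 kb, 83.1% were above 0, with 272 higher (27.8%) and 7 lower (0.72%) and a median of 0.13. The 2911 genes between lay between (60.5% above 0, median 0.03). In 10 classes of span the median went from -0.09 in the shortest to 0.14 in the longest.

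**Figure D3:**
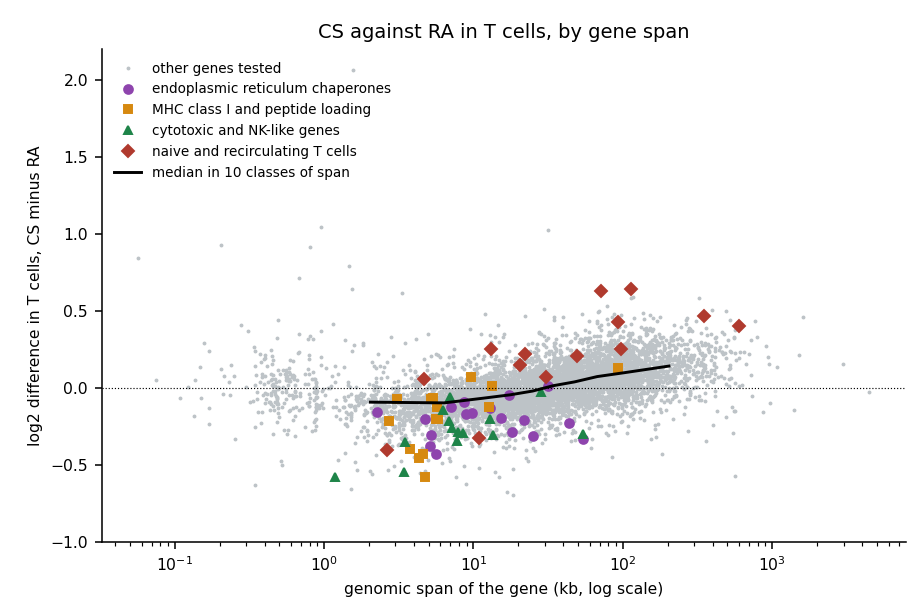
Log2 difference of CS minus RA in T cells (y axis) against the genomic span of each tested gene in kb (x axis, log scale). Grey points are single genes, coloured points 4 of the fixed gene lists, and the black line the median in 10 classes of span, which goes from -0.09 to 0.14.

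Shares of transcripts by gene span were added after the data were seen. They come from the same mice as the trend above, so their p-values are no separate test of it. Summed over all genes of a class, transcripts of genes over 100 kb made up 21.1, 22.6, 22.6 and 23.3% of T cell transcripts in CS and 19.0, 18.8, 20.01 and 19.2% in RA. No mouse of 1 exposure reached into the range of the other. The means were 22.4 ± 0.92% and 19.3 ± 0.52% (exact permutation p = 0.0286, the smallest possible, adjusted p = 0.105 over 11). Within lanes the share was higher in CS by 2.08 to 4.11 points. Without RA F3 the exact permutation p was 0.0571, and the difference of 3.14 points was 2.06 in the cells with a Cd3 or Trac transcript. Genes of up to 20 kb made up 40.8 ± 2.01% and 46.0 ± 0.53%, without overlap (exact permutation p = 0.0286). That p was 0.0571 without any 1 of the RA mice, and the difference of -5.19 points was -3.16 in the cells with a Cd3 or Trac transcript. Cytosolic ribosomal protein genes took 14.9 ± 1.34% and 15.9 ± 0.63% (exact permutation p = 0.229), and Malat1, a nuclear transcript, 1.78 ± 0.18% and 1.81 ± 0.16% (p = 0.771). The over-100 kb difference was 3.14 points within group 1 and 1.79 within group 2 (exact permutation p = 0.0571 in both, n = 4 against 3 and 4 against 4).

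The same order was seen in the other lymphocytes, so it was not particular to T cells. In B cells, genes over 100 kb made up 23.5 ± 1.28% of transcripts in CS and 20.1 ± 2.02% in RA, and in NK and cytotoxic T cells 21.4 ± 0.53% (n = 4) and 19.0 ± 1.14% (n = 3, without RA F1, which had 19 such cells). Both did not overlap between exposures (exact permutation p = 0.0286 each, adjusted p = 0.0858 over the 6 shares compared in each type). Centring every gene on the median of its class of span left 805 genes at an unadjusted p under 0.05 in T cells, against 1313, with a smallest adjusted p of 0.0558. List medians below are therefore given with the centred value, and what moves the classes was not tested.

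**Figure D4:**
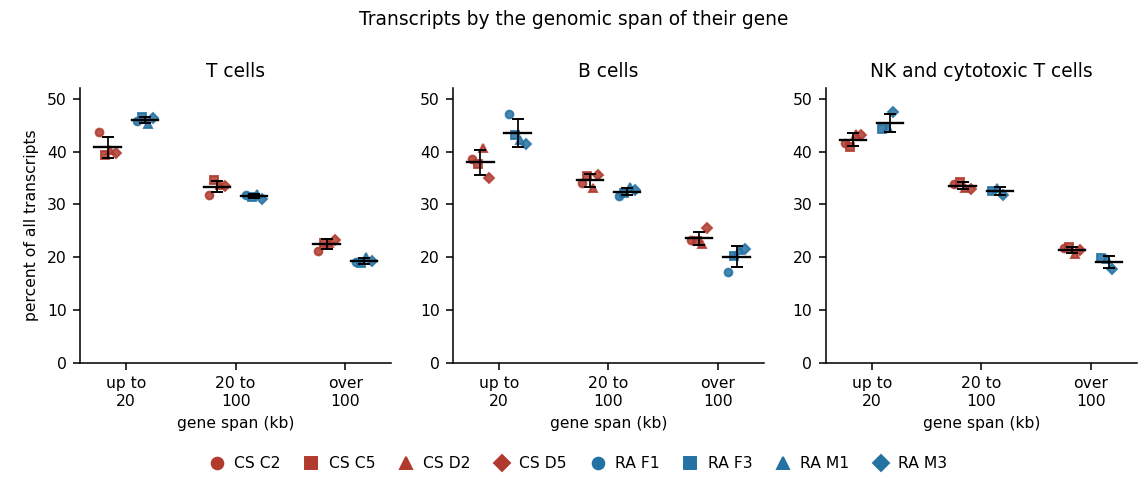
Share of all transcripts (y axis, percent, from 0) that came from genes of up to 20 kb, 20 to 100 kb and over 100 kb in T cells, B cells and NK and cytotoxic T cells. Each point is 1 mouse, the bar the mean and the whisker the SD; mean and SD of RA in NK and cytotoxic T cells leave out F1. For genes over 100 kb in T cells the CS mice sit between 21.1 and 23.3% and the RA mice between 18.8 and 20.01%.

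Genes of naive and recirculating T cells were tested in 14 of 15 cases, and 6 were higher and 2 lower in CS at an unadjusted p under 0.05 (all genes, 10.2% and 10.6%). Of the 14 log2 differences, 12 lay above 0, and the median was 0.24 (0.22 centred). It was 0.16 within group 1 and 0.13 within group 2, where 11 of the genes were tested, and the naive-like group 1 held 26.7 to 52.6% of the T cells of CS mice and 14.9 to 38.1% of those of RA mice (32.7 to 38.1% without RA F1). Bach2, a repressor that keeps T cells from effector fate, was at 19.8, 22.2, 15.2 and 20.3 per 10000 in CS and at 10.96, 13.9, 16.2 and 13.7 in RA, which overlap through CS D2 and RA M1 (log2 difference 0.47, SE 0.14, adjusted p = 0.146). Foxp1, which maintains quiescence, was at 14.3 ± 1.85 and 10.6 ± 1.22 without overlap, and Satb1, a chromatin organiser, at 11.96 ± 2.7 and 9.75 ± 1.16. Bach2, Foxp1 and Satb1 span 347, 597 and 97.1 kb, and the median member of the list spans 39.9 kb. Of all genes over 100 kb 27.8% were higher at an unadjusted p under 0.05, and of those of 20 to 100 kb 10.9%. Chosen after their values were seen, Lef1 (11.9 ± 2.32 and 7.48 ± 2.53) and Rras2 (4.22 ± 0.68 and 2.40 ± 0.60, without overlap) were also higher. The exceptions were Ccr7 and Klf2. Ccr7, the receptor that guides T cells to lymph nodes, was at 2.41 ± 0.61 and 3.23 ± 0.37. Klf2, which controls exit into blood and was chosen after its value was seen, was at 3.73 ± 0.59 and 5.36 ± 1.41. Both were lower in CS (log2 differences -0.32 and -0.40, adjusted p = 0.193 and adjusted p = 0.209).

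Of 14 cytotoxic and NK-like genes tested (17 listed), 9 were lower in CS at an unadjusted p under 0.05 and 3 without overlap (all genes, 10.6% and 7.17% in that direction). All 14 log2 differences lay below 0, with a median of -0.29 (-0.19 centred). The median member spans 7.48 kb, and among all genes of up to 20 kb 22.3% were lower at this threshold. Nkg7, a granule membrane protein needed for killing, was at 2.87, 4.62, 6.80 and 3.11 in CS and at 5.80, 7.76, 6.28 and 7.02 in RA. CS D2 lay within the RA range and the other CS mice below it (log2 difference -0.58, SE 0.19, adjusted p = 0.153, lower in 4 of 4 lanes). Klrk1, the activating receptor NKG2D, was at 1.195 ± 0.362 and 1.69 ± 0.25, and Gzma, a granzyme, at 2.30 ± 2.22 and 3.21 ± 3.15, a difference far within the spread. In addition, chosen after their values were seen, Gzmb was at 0.544 ± 0.270 and 1.26 ± 0.44, and Ctsw and Fasl did not overlap. The share of T cells in group 2 differed between mice, as given above. Within group 2 the list median was -0.22 and within group 1, where 7 of the genes were tested, -0.14.

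Effector, memory and tissue-resident genes (25 of 28 tested) had 5 lower and 0 higher at an unadjusted p under 0.05, with a median of -0.10 (-0.08 centred) and a median span of 8.9 kb. The median was -0.13 within group 1, where 18 of the genes were tested, and 0.02 within group 2. A share of 5 in 25 lies above the 10.6% of all genes and below the 22.3% of genes of up to 20 kb. Ccl5, a chemokine of effector cells, ranged from 18.7 to 55.0 in CS and 34.3 to 66.9 in RA (adjusted p = 0.302). Crip1 and S100a10 differed by 0.04 and -0.36. Regulatory T cell genes (9 of 14 tested, without Foxp3, which was found in too few cells) had 2 lower (all genes, 10.6%) and a median of -0.18 (-0.09 centred): Icos, a costimulator, was at 4.25 ± 1.04 and 5.94 ± 1.42, Ctla4, an inhibitory receptor, at 2.03 ± 0.78 and 2.84 ± 0.76, and Ikzf2, the factor Helios, at 2.77 ± 1.02 and 2.34 ± 0.79. Of type 17 and gamma-delta genes 9 of 24 were tested, with 2 lower (all genes, 10.6%) and a median of -0.09 (-0.17 centred). This median was 0.29 within group 1, where 3 of the genes were tested, and -0.30 within group 2, where 6 were. Rora, Zbtb16 and Maf, transcription factors of these cells, had log2 differences of -0.05, -0.43 (-0.16 without RA F1) and -0.09 and overlapped. Of 16 type 2 lymphocyte genes only Gata3 and Ly6a were tested (-0.26 and -0.22), and both were above 0 without RA F1 (0.04 and 0.03).

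Of 9 receptors and factors of exhaustion and chronic stimulation tested (15 listed), 0 had an unadjusted p under 0.05 in either direction (all genes, 20.7%), and the median was -0.003 (-0.09 centred). Tox, a factor of chronically stimulated T cells, was at 5.14 ± 1.69 and 5.06 ± 1.47, and Slamf6 at 1.71 ± 0.28 and 1.601 ± 0.384. Of the cytokine genes 8 of 21 were tested, 0 at an unadjusted p under 0.05 (all genes, 20.7%), with a median of -0.16 (-0.10 centred); Ltb, lymphotoxin beta, was at 2.45 ± 0.42 and 2.82 ± 0.65 and Tgfb1 at 2.63 ± 0.22 and 2.47 ± 0.35. Il2, Il4, Il10, Il13, Il17a, Il21 and Csf2 were each found in too few T cells to test. Of 22 cytokine receptors tested, Ifngr1 and Cd27 (chosen after its value was seen, 1.61 ± 0.43 and 3.02 ± 1.64) were lower at an unadjusted p under 0.05 and 0 were higher (all genes, 10.6% and 10.2%), with a median of -0.04 (-0.04 centred); Il21r differed by -0.03.

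Of 17 receptors that guide T cells tested (24 listed), 2 were higher and 4 lower at an unadjusted p under 0.05 (all genes, 10.2% and 10.6%, and 22.3% lower among genes of up to 20 kb), with a median of -0.10 (-0.06 centred). Cxcr3, the receptor for interferon-induced chemokines on effector cells, was at 0.344, 0.242, 0.466 and 0.432 per 10000 in CS and at 1.07, 0.659, 0.429 and 0.870 in RA. RA M1 lay within the CS range and the other RA mice above it (log2 difference -0.35, SE 0.10, adjusted p = 0.146). Cxcr4, the receptor for the homing chemokine CXCL12, was at 1.83, 1.292, 1.395 and 1.446 in CS and at 0.862, 0.898, 1.399 and 0.867 in RA, higher in 3 of 4 lanes (0.32, SE 0.10, adjusted p = 0.148). Again RA M1 stood with the CS mice, above the other RA mice. Cxcr6, a receptor of tissue-resident T cells, was at 1.15 ± 0.69 and 1.30 ± 0.23 (adjusted p = 0.654). Selplg, P2ry10 and Itga4, a selectin ligand, a lysophospholipid receptor and an integrin, differed by -0.12, 0.20 and 0.45 (Itga4 0.19 without RA F1) with adjusted p from 0.261 to 0.488.

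**Figure D5:**
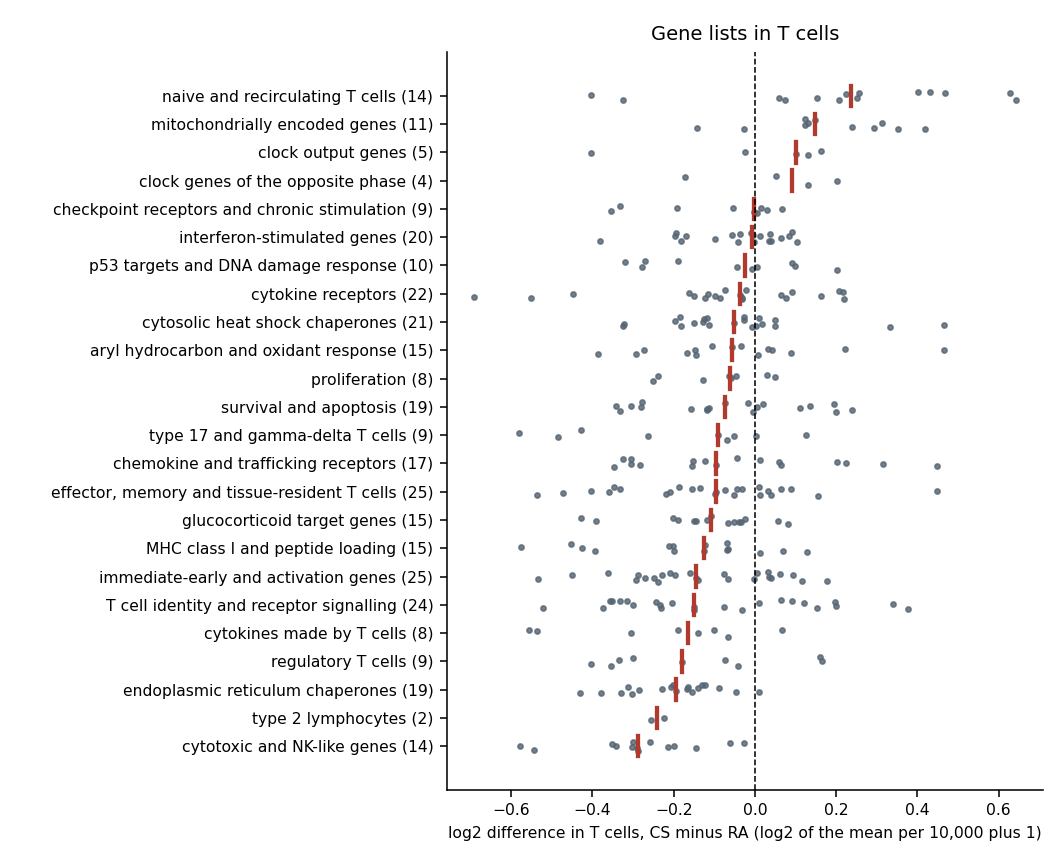
Log2 difference of CS minus RA in T cells (x axis) for the tested genes of 24 fixed lists (y axis, number of tested genes in brackets). Each grey point is 1 gene and each red bar the median of its list; medians run from 0.24 for naive and recirculating genes to -0.29 for cytotoxic genes.

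Endoplasmic reticulum chaperones, which fold secreted and membrane proteins such as the T cell receptor, had the largest share of tested members lower at an unadjusted p under 0.05 of the 24 lists. Of 19 tested of 20 listed, 14 were lower and 0 higher at that threshold and 10 did not overlap (all genes, 10.6% and 7.17%). The median was -0.19 and was -0.12 after centring on span; the median member spans 11.4 kb, and among all genes of up to 20 kb 22.3% were lower at this threshold. Hspa5, the chaperone BiP, was at 3.93, 4.18, 3.42 and 3.25 per 10000 in CS and at 5.81, 6.07, 4.60 and 4.88 in RA, with every CS mouse below every RA mouse (log2 difference -0.43, SE 0.11, adjusted p = 0.141). Calr, calreticulin, was at 2.33 to 2.86 and 3.07 to 4.11 (-0.38, adjusted p = 0.141), also without overlap. Sec61b, a subunit of the import channel, was at 2.25 ± 0.19 and 2.46 ± 0.35 (adjusted p = 0.616). Chosen after its value was seen, Xbp1, the factor that induces many of these genes under folding stress, was at 0.350 ± 0.071 and 0.667 ± 0.129 without overlap.

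Several genes that folding stress induces are known to carry a promoter element, CCAAT and CCACG with 9 bases of any kind between them, on either strand, through which that induction acts. It was searched in the 250 bases before the start of each gene (RefSeq, GRCm38.p6). Of the promoters that hold it, 3 are printed 5′ to 3′ on the strand of the gene with the element in capitals.
Hspa5 (chr2:34771840-34772089, plus strand): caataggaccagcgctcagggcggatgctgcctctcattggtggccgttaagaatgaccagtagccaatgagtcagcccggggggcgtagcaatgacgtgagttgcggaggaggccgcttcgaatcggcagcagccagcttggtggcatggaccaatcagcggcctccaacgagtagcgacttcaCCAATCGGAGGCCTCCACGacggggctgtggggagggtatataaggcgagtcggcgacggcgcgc
Calr (chr8:84846932-84847181, minus strand): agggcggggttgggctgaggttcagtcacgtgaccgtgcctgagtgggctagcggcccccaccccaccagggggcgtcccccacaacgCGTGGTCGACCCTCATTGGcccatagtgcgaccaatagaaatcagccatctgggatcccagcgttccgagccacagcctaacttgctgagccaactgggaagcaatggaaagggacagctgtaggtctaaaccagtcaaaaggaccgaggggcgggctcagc
Hsp90b1 (chr10:86705445-86705694, minus strand): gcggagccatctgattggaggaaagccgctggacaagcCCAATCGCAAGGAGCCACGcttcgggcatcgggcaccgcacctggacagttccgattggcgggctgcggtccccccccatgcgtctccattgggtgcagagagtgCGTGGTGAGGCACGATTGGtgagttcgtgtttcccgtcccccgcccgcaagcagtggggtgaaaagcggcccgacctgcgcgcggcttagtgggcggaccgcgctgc
The element was found in 7 of the 18 chaperone promoters in the table (38.9%; Calr, Canx, Creld2, Dnajc3, Hsp90b1, Hspa5 and Pdia6) against 37 of 32851 promoters in all (0.113%), and Hsp90b1, the chaperone GRP94, held it 2 times. Of the 7 genes with it, 6 were lower in CS at an unadjusted p under 0.05 (median log2 difference -0.23, from -0.43 in Hspa5 to 0.01 in Canx). Of the 11 without it, 7 were lower (median -0.16, from -0.31 to -0.05). The ranges of both sets overlap, and a match of letters does not show that a factor was bound. At the same threshold 10.6% of all genes and 22.3% of those of up to 20 kb were lower. Both sets are members of the list counted above, so these counts add no separate result. The element is known from genes of this kind, so its share among them was likely in advance.

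MHC class I genes, which present peptide to CD8+ T cells and are expressed by T cells themselves, were all tested. Of the 15, 6 were lower and 0 higher at an unadjusted p under 0.05 and 3 did not overlap (all genes, 10.6% and 7.17%), with a median of -0.12 (-0.06 centred). The median member spans 5.4 kb, and 22.3% of all genes of up to 20 kb were lower. H2-D1 was at 14.95, 11.89, 17.23 and 12.63 per 10000 in CS and at 23.23, 20.87, 19.95 and 21.78 in RA (log2 difference -0.58, SE 0.12, adjusted p = 0.141), and H2-K1 at 19.5, 19.3, 22.7 and 17.6 and at 29.8, 29.0, 24.7 and 26.3 (-0.45, SE 0.10, adjusted p = 0.141). For both, every CS mouse lay below every RA mouse. H2 genes are near-identical copies of each other, so how their reads were split is uncertain. B2m, the light chain that all of these molecules need, was at 15.3 ± 1.07 and 16.1 ± 1.54 (adjusted p = 0.714). In B cells H2-D1 was at 10.4 ± 1.30 and 16.4 ± 2.92, without overlap as in T cells.

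Immediate-early genes, which activation or tissue digestion induces, had 7 lower and 0 higher of 25 tested and 6 without overlap (all genes, 10.6% and 7.17%), with a median of -0.15 (-0.11 centred). Their median span is 5.8 kb, and 22.3% of all genes of up to 20 kb were lower at this threshold. Junb, an AP-1 subunit, was at 20.1, 17.8, 18.3 and 15.6 in CS and at 29.4, 22.5, 24.6 and 23.1 in RA, without overlap (log2 difference -0.45, SE 0.11, adjusted p = 0.141). Btg1 and Btg2, antiproliferative factors of quiescent T cells, were at 8.16 ± 0.82 and 9.07 ± 0.26 and at 6.49 ± 0.30 and 8.05 ± 0.54. Fos and Egr1, chosen after their values were seen, differed by -0.23 and -0.08 with adjusted p = 0.364 and adjusted p = 0.787. The digestion followed the same protocol for all lungs, and its part in these values was not tested.

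Cytosolic heat shock chaperones (21 of 22 tested) had 3 lower and 1 higher at an unadjusted p under 0.05 (all genes, 10.6% and 10.2%), with a median of -0.05 (-0.02 centred). Hsp90ab1, a constitutive HSP90, was at 11.4 ± 1.53 and 14.4 ± 1.28, Hspa8, a constitutive HSP70, at 8.06 ± 0.38 and 10.5 ± 1.95, and Hsp90aa1, the inducible HSP90, at 4.995 ± 0.775 and 5.08 ± 0.30. Hsph1, chosen after its value was seen, was higher (1.89 ± 0.68 and 1.09 ± 0.48). Glucocorticoid target genes (15 of 16 tested) had 2 lower and 0 higher (all genes, 10.6% and 10.2%) with a median of -0.11 (-0.09 centred); the receptor gene Nr3c1 was at 11.9 ± 1.77 and 12.6 ± 3.28, and Nfkbia, the inhibitor of NF-kappaB, at 5.08 ± 0.87 and 5.74 ± 2.98.

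Of 24 aryl hydrocarbon and oxidant response genes, which smoke constituents induce in many cells, 15 were tested, and Ahr, Ahrr, Cyp1a1, Cyp1b1, Nqo1, Hmox1, Slc7a11, Srxn1 and Mt2 were each found in too few T cells. Of the 15, 2 were higher and 2 lower at an unadjusted p under 0.05 (all genes, 10.2% and 10.6%), with a median of -0.06 (-0.04 centred). Fth1, the ferritin heavy chain, was at 13.99 ± 1.47 and 18.8 ± 3.26, Ftl1, the light chain, at 2.69 ± 0.83 and 3.48 ± 0.97, and Prdx1, a peroxiredoxin, at 2.25 ± 0.35 and 2.59 ± 0.39. The 2 higher genes, named after their values were seen, were Gclc, the rate-limiting enzyme of glutathione synthesis (1.57 ± 0.40 and 0.856 ± 0.195, log2 difference 0.46, adjusted p = 0.141), and Sod1, the cytosolic superoxide dismutase (0.760 ± 0.083 and 0.511 ± 0.094, 0.22, adjusted p = 0.146), both without overlap. Of the p53 and DNA damage genes (10 of 15 tested) 1 was higher and 2 lower (all genes, 10.2% and 10.6%), with a median of -0.02 (0.001 centred). Gadd45b was at 2.76 ± 0.54 and 4.17 ± 2.95, where RA F1 was at 8.49 (log2 difference 0.02 without it), and Sesn3, a stress-induced sestrin, at 1.89 ± 0.23 and 1.51 ± 0.18.

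Interferon-stimulated genes (20 of 34 tested) had 3 lower and 0 higher at an unadjusted p under 0.05 (all genes, 10.6% and 10.2%) and a median of -0.007 (0.006 centred). Ly6e was at 3.85 ± 0.45 and 5.42 ± 1.45 without overlap (log2 difference -0.38, and -0.24 without RA F1), Ifi27l2a at 1.97 ± 0.18 and 2.17 ± 0.95, and Slfn2 at 1.62 ± 0.30 and 2.004 ± 0.425. Survival and apoptosis genes (19 of 21 tested) had 2 higher and 6 lower (all genes, 10.2% and 10.6%, and 22.3% lower among genes of up to 20 kb) and a median of -0.07 (-0.02 centred). Gimap3 and Gimap6, GTPases that sustain lymphocyte survival, were at 3.10 ± 0.25 and 3.98 ± 0.31 and at 5.34 ± 0.74 and 6.847 ± 0.996, and Bcl2, the anti-apoptotic factor, at 5.61 ± 1.403 and 4.60 ± 1.16. Proliferation genes (8 of 16 tested) had 1 lower (all genes, 10.6%), Hmgb2 (1.45 ± 0.22 and 1.89 ± 0.23), and a median of -0.06 (-0.01 centred); H2afz and Tubb5 were at 7.295 ± 0.996 and 8.88 ± 1.17 and at 2.08 ± 0.22 and 2.23 ± 0.38. Mki67 and Top2a were found in too few T cells to test.

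Clock genes were low in T cells, and 5 of 12 output genes and 4 of 5 genes of the opposite phase were tested. In the first list 2 were higher and 1 lower at an unadjusted p under 0.05 (all genes, 10.2% and 10.6%; median 0.10, 0.09 centred), and in the second 1 was higher (median 0.09, 0.02 centred). Bhlhe40, a clock repressor that effector T cells also use, was at 1.31 ± 0.55 and 2.02 ± 0.45, Per1 at 0.737 ± 0.047 and 0.768 ± 0.126, Cry1 at 0.672 ± 0.009 and 0.534 ± 0.144, Arntl at 1.57 ± 0.26 and 1.47 ± 0.14, and Clock at 0.861 ± 0.198 and 0.618 ± 0.156. The hour at which lungs were taken was not given in the sources used here. Mitochondrially encoded genes (11 of 13 tested) had 1 higher and 0 lower (all genes, 10.2% and 10.6%) and a median of 0.15 (0.24 centred); mt-Cytb was at 30.5 ± 4.00 and 23.5 ± 8.35 (log2 difference 0.42, and 0.19 without RA M1), mt-Nd1 at 21.98 ± 3.54 and 19.8 ± 3.54, and mt-Nd4 at 15.5 ± 2.95 and 12.6 ± 3.55.

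Whether these differences were particular to T cells was tested as the difference of the CS effect between T cells and other lymphocytes of the same mice. Against B cells (2334 cells), 0 of 5527 genes were called by limma and 211 (3.82%) had an unadjusted p under 0.05, 98 with the larger value in T cells (1.77%) and 113 with the smaller (2.04%), or 373 without RA F1. Against NK and cytotoxic T cells (488 cells), 0 of 5607 were called (smallest adjusted p = 0.0669) and 299 (5.33%) had an unadjusted p under 0.05, 160 (2.85%) and 139 (2.48%) in the same order. Between CS and RA, 822 of 6209 genes (13.2%) passed that threshold in B cells alone, 7.54% upward and 5.7% downward. The count was 622 of 6135 (10.1%) in NK and cytotoxic T cells, 5.53% upward and 4.61% downward, with 0 called in both types. Taf4b was 0.59 higher in T cells and 0.10 higher in B cells on the log2 scale (difference 0.49, limma adjusted p = 0.392). Ifngr1 differed by -0.69 and -0.08 (difference -0.61, limma adjusted p = 0.998), Hspa5 by -0.43 and -0.30, and H2-D1 by -0.58 and -0.60. Ankrd17, higher by 0.45 in T cells, was higher by 0.37 in B cells and 0.49 in NK and cytotoxic T cells. No gene could thus be called particular to T cells, which at this number of mice does not show that the responses were alike.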

How the data were processed

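Single-cell transcript counts of 8 mouse lungs were used. The authors aligned reads with STARsolo (STAR 2.7.3a) to GRCm38.p6 with GENCODE M22, counted transcripts of spliced and unspliced reads, and removed cells under 1000 transcripts, over 5% mitochondrial or under 7.5% unspliced, as their methods state. In the deposited cell table, 39 of the T cells lie over 5%. They then subtracted free RNA with SoupX, so the deposited values are estimated counts that need not be whole. The deposited cell table gives the percent of mitochondrial transcripts and the authors' cell type of each cell, and its T label was used as it stands. How doublets were treated beyond the clusters the authors marked as multiplets is not given in the sources used here.

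Each cell was scaled to 10000 transcripts, and the mean over the T cells of a mouse was the unit (at least 20 cells per mouse). Genes found in at least 10% of the T cells of either exposure were compared on log2(mean + 1), a scale that understates differences of low genes, with limma 3.58.1 (trend, R 4.3.3) and Benjamini-Hochberg adjustment at 0.05. For single values, a two-sided exact permutation test over the 8 mice was used. The litters that mice came from are not labelled. Gene spans came from GENCODE M21, matched by symbol for 98.3% of 33027 genes. T cells were clustered by k-means into 6 groups on 15 principal components of 1000 genes (scikit-learn 1.9.0). The code was tested on simulated data. Genes named were the markers and chemokine receptors listed in the text, the 6 higher and 6 lower genes of smallest unadjusted p (1 predicted gene left out), and the 3 most abundant tested members of each list; any other is said to be chosen after its value was seen. 1 gene that the rule names is not reported here. The members and lists were chosen with earlier results of these data known. Alternatives were another pseudocount, other filters and scalings, lane or the labelled sex (which Xist and Ddx3y contradict in the CS libraries) as a term, other choices of cells, and leaving out each mouse.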

Additional observations from a re-analysis of the deposited data

Results flagged for a closer look

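In 244 groups of 4 mice, 18 held a mouse set apart from the other 3 by more than Dixon's critical value, where chance sets apart about 1 in 20, and 10 of the 18 were RA F1, the mouse with 74 T cells.

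In RA F1 the receptor chain Trac was at 2.35 per 10000 transcripts against 3.89 to 4.20 in the other RA mice, Ankrd17 at 2.54 against 3.24 to 3.37, Cry1 at 0.319 against 0.594 to 0.618 and the ferritin chain Ftl1 at 2.04 against 3.80 to 4.14. Ifngr1 was at 12.2 against 8.63 to 9.22 and the splicing factor Syf2 at 1.93 against 1.71 to 1.73. The share of its T cells with Cd8a or Cd8b1 was 13.5% against 22.03 to 22.87%, and group 6, led by type 2 innate lymphoid genes, held 8.11% against 0.441 to 1.52%. Summed type 2 innate lymphoid markers were at 9.10 against 1.88 to 2.40 and summed neutrophil markers at 1.21 against 0.130 to 0.258.

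In CS D5, Ypel3 was at 0.833 against 1.12 to 1.15 in the other CS mice, Btg1 at 6.93 against 8.52 to 8.62 and mt-Cytb at 24.6 against 31.8 to 33.1. In CS D2, Ly6a was at 1.92 against 0.854 to 1.01, and the log2 ratio of T to B cells at -1.78 against 0.0127 to 0.373. In RA M1, Cxcr4 was at 1.4 against 0.862 to 0.898. In RA F3 the log2 ratio of Cd4 to Cd8 was -2.08 against -1.72 in the other 3 mice, and in RA M3 the summed erythrocyte markers were at 16.4 against 0.405 to 1.24.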

How the results depend on the processing

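No gene was called by limma in T cells, or for T minus B or T minus NK and cytotoxic T cells, under any alternative run. The count of genes at an unadjusted p under 0.05 in T cells was 874 with genes in at least 25% of cells, 2031 with no filter, 805 after centring within 10 classes of gene span, 762 in group 1 alone and 573 in group 2 alone, against 1313. The other alternatives gave 1063 to 1342, and leaving out a mouse 938 to 1319. Centring, group choices and shares of transcripts by gene span were added after the data were seen. A Wilcoxon test over single cells called 360 genes. The labels name the lane but no litter or other pairing for the mice of a lane, so what else they shared is not known. The correlations of their deviations from the group means were -0.14, -0.098, 0.063 and 0.013. With the lane as replicate block 1166 genes had an unadjusted p under 0.05 (T minus B 195, T minus NK and cytotoxic T cells 256) and 0 were called. T minus NK without RA F1 was not run, since F1 was already left out there.

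The share of T cells among all cells was -0.049 points in CS minus RA without RA F1, and ranged from -0.049 to 2.53 when each mouse was left out. The log2 ratio of T to B cells ranged from -0.18 to 0.54, and was below 0 in 5 of these (-0.18, -0.058, -0.17, -0.016 and -0.076). The share of T cells with Cd4 was -0.30 points without RA F1 (-0.30 to 1.29 over mice left out), and that with Foxp3 -0.62 without thinning. The ratio of Cd4 to Cd8 missed the threshold without RA F3 (0.42, exact permutation p = 0.0571, within 0.38 to 0.58 over mice left out) and with summed transcripts (0.55, p = 0.114). The cause of these shifts was not tested.

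Of 2004 alternative values of the 88 named genes, 81 in 27 genes changed sign, none of them among the 41 genes with an unadjusted p under 0.05. Signs turned with only T cell group 1, Cd4 -0.27, Crip1 -0.087, Rora 0.29, Gata3 0.059, Tgfb1 -0.025, Il21r 0.037, Cry1 -0.00011, Nr3c1 0.12, Gadd45b 0.37. They also turned after centring within 10 classes of gene span, Ptprc -0.011, Tox -0.14, Hsp90aa1 0.039, Sec61b 0.012, Per1 0.026, Arntl -0.050, Nfkbia 0.028, Ifi27l2a 0.053, B2m 0.032, Tubb5 0.035. They also turned with only T cell group 2, Satb1 -0.0067, Gzma 0.14, Maf 0.0099, Gata3 0.18, Hsp90aa1 0.030, Nfkbia 0.034, H2afz 0.28, Tubb5 0.13, Bcl2 -0.0011. They also turned with quantile normalization, Crip1 -0.0036, Tox -0.032. They also turned without cells with markers of another type, Crip1 -0.065, Tox -0.015, Il21r 0.059, Hsp90aa1 0.091, Nfkbia 0.13. They also turned with summed transcripts, Rora 0.013, Ifi27l2a 0.039, Tubb5 0.10. They also turned with only cells with a Cd3 or Trac transcript, Gata3 0.0092, Tox -0.024, Slamf6 -0.038, Tgfb1 -0.0073, Hsp90aa1 0.0067, Arntl -0.016, Ifi27l2a 0.036, Tubb5 0.0046. They also turned without T cell groups 5 and 6, Tox -4.7e-05, Hsp90aa1 0.0073. With each mouse left out, the log2 difference ranged in Cd4 -0.030 to 0.12, in Ptprc -0.022 to 0.16, in Crip1 -0.069 to 0.18, in Gzma -0.65 to 0.071, in Rora -0.19 to 0.13, in Maf -0.31 to 0.049, in Ly6a -0.38 to 0.027, in Gata3 -0.41 to 0.036, in Tox -0.13 to 0.15, in Il21r -0.13 to 0.052, in Hsp90aa1 -0.11 to 0.034, in Per1 -0.057 to 0.012, in Arntl -0.00089 to 0.12, in Nr3c1 -0.17 to 0.068, in Nfkbia -0.21 to 0.20, in Ifi27l2a -0.20 to 0.091, in Gadd45b -0.55 to 0.023, in Cxcr6 -0.31 to 0.017. For Gzma 6 of the 8 gave a value, since it missed the filter on the share of cells in the other 2.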
